A study of Mus musculus with 3 samples.

Results

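The glutathione and antioxidant genes described here are 32 named enzymes, transporters and regulators that handle peroxides, superoxide, haem and electrophiles. They were taken by gene symbol from the 32285 genes of the deposited matrices, and were chosen with earlier results of these data known. All 32 were found and all had counts in every library. They comprise 7 glutathione transferases, 3 glutathione peroxidases, 5 genes of glutathione synthesis, supply and reduction, 3 of the thioredoxin system including sulfiredoxin, 6 peroxiredoxins, 3 superoxide dismutases, catalase, the haem oxygenase Hmox1 with the quinone reductase Nqo1, and the regulator Nfe2l2 with its inhibitor Keap1.

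The study profiled single cells of mouse lung with 10x Chromium 3' chemistry in 3 libraries, labelled Control, Model and PD00. The series title speaks of ovalbumin, an egg-white protein used to sensitise and challenge mouse airways, and of PD00, a peptidomimetic. The labels give each library its group name, an age of 3 months and lung tissue described as healthy, also for Model. They give neither the strain, nor the number of mice per library, nor the doses, nor whether the PD00 library also received ovalbumin.

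Glutathione is a tripeptide made from glutamate, cysteine and glycine. Cystine enters cells through Slc7a11, the glutamate cysteine ligase (catalytic subunit Gclc, modifier subunit Gclm) and glutathione synthetase (Gss) build the tripeptide, and glutathione reductase (Gsr) restores it after use. Glutathione peroxidases and transferases spend it on peroxides and electrophiles, while thioredoxin (Txn1), its reductase Txnrd1 and sulfiredoxin (Srxn1) serve the peroxiredoxins in parallel. Many of these genes are known targets of the transcription factor Nfe2l2, which Keap1 holds down until oxidants or electrophiles modify it. In the lung, alveolar macrophages and club cells of the airway are known for high antioxidant capacity.

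After filtering, 9368 Control, 11285 Model and 9373 PD00 cells remained, with 76914274 to 79690635 unique molecular identifiers (UMIs, 1 per captured transcript) per library and a median of 4048 to 5232 per cell. Cells were assigned to 25 types by marker genes, which took 92.9% of the cells in Control, 81.5% in Model and 83.6% in PD00. Levels are UMIs per 1000000 UMIs of a type in a library (CPM). The intervals are exact 95% intervals that cover counting error only. With 1 library per group no difference has a replicate check and none was tested. A member is called higher or lower in a type at a ratio of at least 1.5-fold with at least 50 UMIs over both libraries, and the share of all genes past the same limits is printed beside the first such count. Between 31 and 43 cell barcodes were shared by each pair of libraries. Control is the library that stands apart in make-up, with 3080 alveolar macrophages against 982 in Model and 1332 in PD00, and with 12 Gpnmb Trem2 macrophages against 827 and 646. It held 7 cells gated as eosinophils against 407 and 363, and 27 plasma cells against 369 and 333. The name of the eosinophil gate is uncertain, as its summed neutrophil markers exceeded its eosinophil markers. They were 19870 against 4940 CPM in Model and 28104 against 4529 in PD00.

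The members were spread over most types. Some shared a leading type, and for some the leading type changed between libraries. Among neutrophils, Txn1 stood at 2433 CPM in Control, 2009 in Model and 1662 in PD00, and the cystine importer Slc7a11 at 1290, 1123 and 1354 CPM. In both cases neutrophils were the leading type in all 3 libraries. For Slc7a11 the next type was eosinophils in Model and PD00, at 1013 and 891 CPM, not far below neutrophils. In Control, with too few eosinophils to give a level, it was alveolar macrophages at 300 CPM. Over T, B, NK and ILC2 cells, Slc7a11 ranged from 6.64 to 11.6 CPM in Control, 8.30 to 22.7 in Model and 8.06 to 28.4 in PD00. Prdx6, a peroxiredoxin that also acts on phospholipids, was led by airway secretory cells at 2053, 815 and 1271 CPM, as was the microsomal transferase Mgst1 at 1455, 852 and 1223 CPM.

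Sod3 and Gpx3, both secreted enzymes, were led by fibroblasts. Extracellular superoxide dismutase, Sod3, stood there at 820, 826 and 1208 CPM, and the plasma glutathione peroxidase Gpx3 at 625, 813 and 1448 CPM. Both were similar or moderately different between Control and Model and highest in PD00. Keap1 was led by endothelium in all 3 libraries, at 66.1, 71.1 and 59.6 CPM. Gsta3, an alpha class transferase, was led by mesothelium in Control at 771 CPM and in PD00 at 480 CPM. The 8 Model mesothelial cells were too few to give a level. Nqo1 reached at most 16.6 CPM in any type with at least 20 cells, so little can be said of it. The heat map of levels by type shows these patterns for all 32 members.

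**Figure D1:**
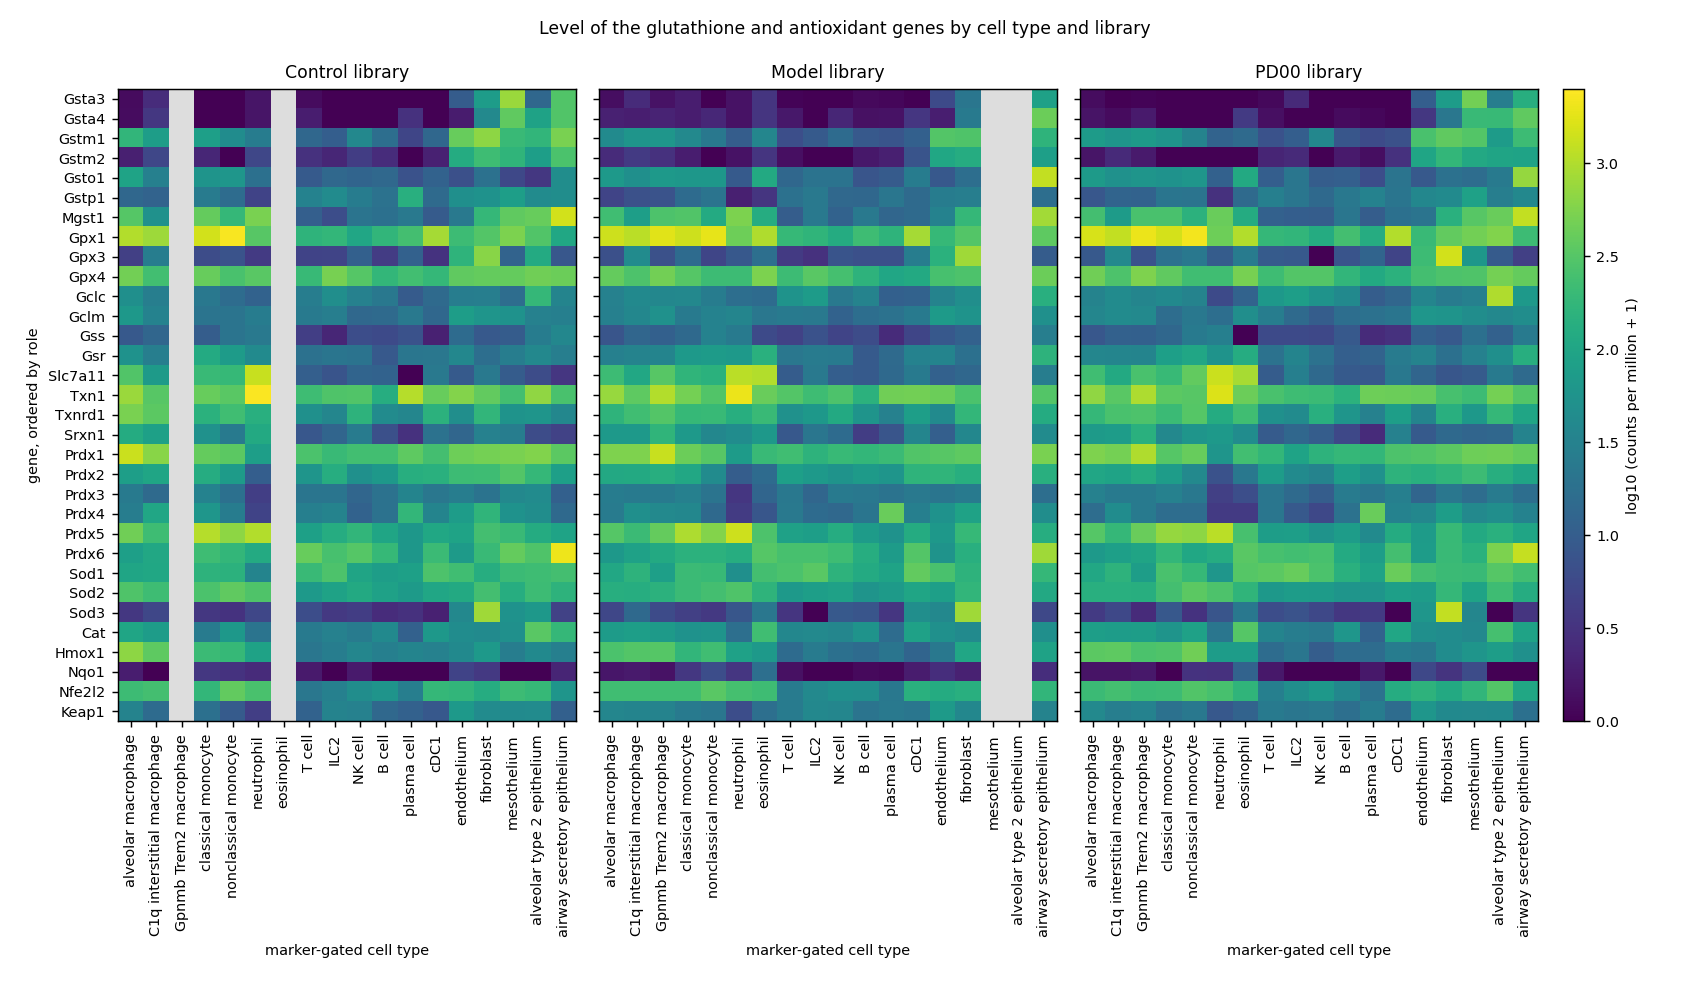
Levels of the 32 genes (rows, by role) in each gated cell type (columns) in the Control, Model and PD00 libraries, as log10(CPM + 1) in colour; grey marks types with under 20 cells in that library. Neutrophils lead for Txn1 and Slc7a11, airway secretory cells for Prdx6 and Mgst1, and fibroblasts for Sod3 and Gpx3.

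Over all gated cells, the members were mostly lower in Model than in Control. Of 32, 12 were at least 1.5-fold lower and 1 was higher, where 18.3% of all genes measured were lower and 12.5% higher. The members' median ratio was -0.45 on the log2 scale, beside -0.14 over all genes. The 6 farthest from 1 were Gsta3, Gstm1, Hmox1, Txnrd1, Gstm2 and Sod2, and all 6 were lower in Model.

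Gsta3 stood at 13.3 CPM in Control, 3.58 in Model and 8.27 in PD00, 3.71-fold lower in Model than in Control. Gstm1, a mu class transferase (GRCm38 chr3:108012255-108017973, minus strand), stood at 183, 53.7 and 67.2 CPM, 3.41-fold lower. Hmox1, the enzyme that opens the haem ring, stood at 419, 153 and 194 CPM, 2.75-fold lower. In these 3 genes the Control library was the highest and PD00 lay between the others. Txnrd1 stood at 350, 144 and 152 CPM, 2.43-fold lower in Model. Gstm2 stood at 26.0, 11.5 and 11.6 CPM, and the mitochondrial superoxide dismutase Sod2 at 230, 118 and 118 CPM. For these the Model and PD00 libraries were close and Control was high.

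A total over all cells mixes the level within each type with the share of each type. Of the UMIs of the types shared by Control and Model, alveolar macrophages gave 61.3% in Control and 26.4% in Model. Plasma cells gave 0.658% and 10.6%. The totals were therefore recomputed over the 15 shared types, which held 97.2% of the gated UMIs of Control and 80.7% of those of Model. Gpnmb Trem2 macrophages are not among these types. As observed over them, 14 members were lower and 2 higher, where 16.7% and 15.3% of all genes were. The members' median there was -0.54 and that of all genes -0.09. The first recomputation kept the Control make-up and took only the levels from Model. The second kept the Control levels and took only the make-up from Model. With the make-up kept, 10 members were lower and 0 higher, where 14.6% and 12.8% of all genes were; the members' median was -0.36 and that of all genes -0.09. With the levels kept, 8 were lower and 1 higher, where 9.0% and 11.9% of all genes were.

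With make-up kept, the 6 members farthest from 1 were Gsta3 (log2 ratio -1.62), Gstm1 (-1.44), Txnrd1 (-1.40), Hmox1 (-1.20), Gstp1 (-1.15) and Prdx1 (-1.08). For Gstm1, Txnrd1, Hmox1 and Prdx1 the levels-kept values were also below 0, at -0.62, -0.73, -0.87 and -0.64. For these 4 genes the levels within types and the make-up lay in the same direction. For Gsta3 and Gstp1 the levels-kept values were above 0, at 0.20 and 0.75. Mesothelium, which led Gsta3 in Control, is outside the shared types, with 37 cells in Control and 8 in Model. The observed Gsta3 log2 ratio was -1.89 over all gated cells and -1.41 over the shared types. Gstp1 in Control was highest in plasma cells, at 140 CPM from 27 cells, a type with 10.6% of the shared-type UMIs in Model. The part of mesothelium and plasma cells in these values was not tested.

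Prdx4, the peroxiredoxin of the endoplasmic reticulum, was the 1 member higher over all gated cells, at 39.1 CPM in Control, 65.3 in Model and 56.6 in PD00. With make-up kept its log2 ratio was -0.26, and with levels kept it was 0.54. Plasma cells held 2.87% of the gated Prdx4 UMIs in Control, 55.7% in Model and 62.6% in PD00. When each cell was thinned to 500 UMIs, which reduces the weight of large cells, the Model to Control ratio of Prdx4 over all gated cells was 0.941.

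**Figure D2:**
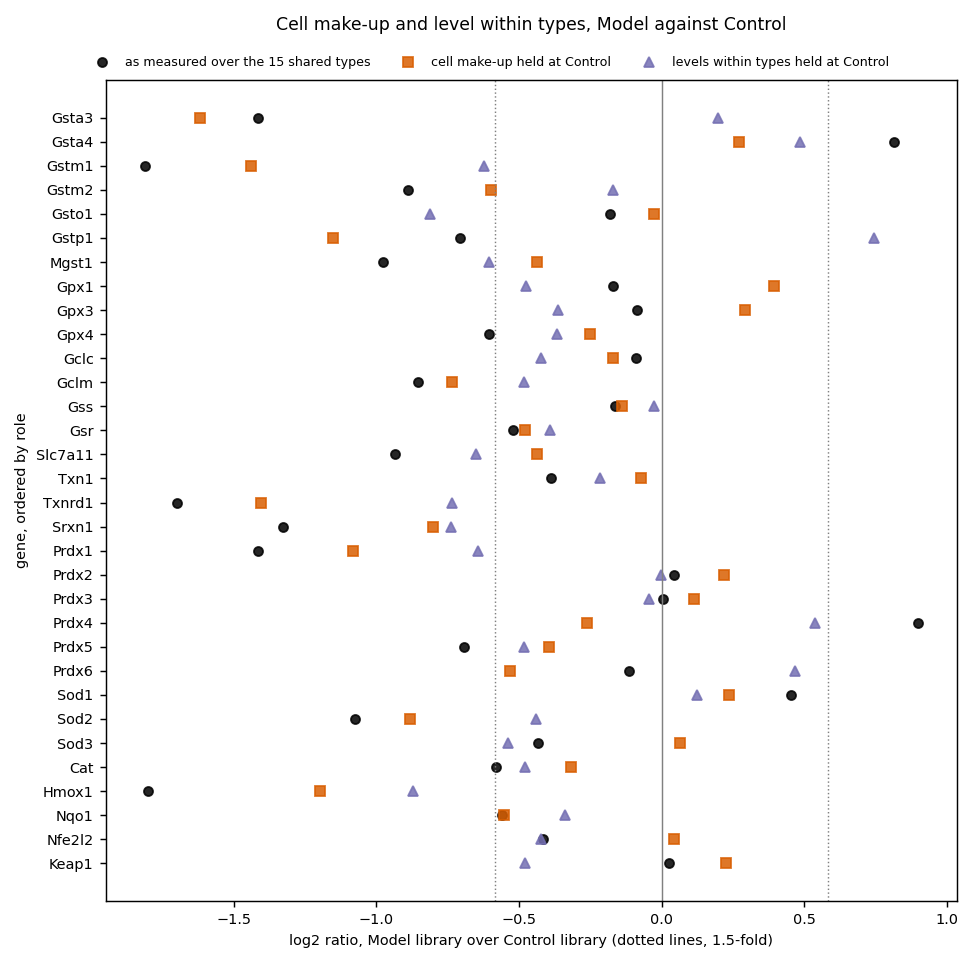
Log2 ratios of Model to Control for each gene over the shared types, as observed, with the Control make-up of cell types kept, and with the Control levels within types kept. Gstm1, Txnrd1 and Hmox1 lie below 0 in all 3, whereas Prdx4 lies above 0 only where the make-up is that of Model.

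Alveolar macrophages, the resident phagocytes of the air spaces, gave more UMIs than any other type in each library. Of 29 members measured there, 10 were lower in Model than in Control and 3 higher, where 24.3% and 15.8% of all genes were. The members' median log2 ratio was -0.45, beside -0.18 for all genes. The 10 lower members were Gstm1, Gstp1, Gclc, Gclm, Gsr, Txnrd1, Srxn1, Prdx1, Sod2 and Hmox1, which include both subunits of the ligase that begins glutathione synthesis, both reductases and sulfiredoxin.

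Gstm1 stood at 174 CPM in Control, 41.6 in Model and 72.8 in PD00, 4.19-fold lower in Model than in Control (3.86 to 4.55). It was the member with the largest difference downward in this type. Txnrd1 (chr10:82833951-82897712, plus strand) stood at 516, 161 and 180 CPM, 3.21-fold lower (3.08 to 3.35). Prdx1, an abundant cytosolic peroxiredoxin, stood at 1331, 553 and 550 CPM, 2.41-fold lower (2.35 to 2.46). In both, Model and PD00 were near each other and Control was high.

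Hmox1 (chr8:75093621-75100589, plus strand) stood at 663, 270 and 350 CPM, 2.45-fold lower in Model (2.37 to 2.53). The summed red cell markers in the same gate were 617 CPM in Control, 83.0 in Model and 47.0 in PD00. Their part in the result was not tested. Sod2 stood at 288, 134 and 140 CPM, 2.15-fold lower (2.05 to 2.25).

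Among the genes of glutathione synthesis and reduction, Gclm stood at 63.6, 29.2 and 34.9 CPM, 2.18-fold lower (1.97 to 2.42). Its partner Gclc stood at 48.4, 30.6 and 32.5 CPM, 1.58-fold lower (1.43 to 1.75). Gsr stood at 52.4, 29.5 and 34.8 CPM, 1.77-fold lower (1.60 to 1.96). All 3 had Control highest and PD00 slightly above Model. Srxn1, which repairs overoxidised peroxiredoxins, stood at 123, 66.1 and 71.0 CPM, 1.86-fold lower. Slc7a11 stood at 300, 212 and 226 CPM and did not reach the fold limit.

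Other members did not follow this direction. Gpx1, the cytosolic glutathione peroxidase, stood at 1012, 1380 and 1580 CPM in alveolar macrophages, 1.36-fold higher in Model than in Control (1.34 to 1.39), and was the member farthest above 1 by its interval. Nfe2l2 itself stood at 212, 225 and 204 CPM and Keap1 at 31.7, 35.2 and 38.5 CPM. Txn1 stood at 783, 761 and 674 CPM and Sod1, the cytosolic superoxide dismutase, at 100, 107 and 107 CPM. These levels differed far less between libraries than those of Txnrd1 or Prdx1. The 3 members called higher, Gstm2, Gpx3 and Sod3, were all under 10 CPM, and Gstm2 and Sod3 turned to 0.771 and 0.846 of Control when cells of clusters with under 50% of their cells gated were left out, an alternative chosen after seeing the data.

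The gated alveolar macrophages were not alike in their other markers. Cells with the marker Plet1 were kept out of the Gpnmb Trem2 macrophage gate by rule, and could enter this one despite Gpnmb Trem2 markers. The summed markers of alveolar macrophages were 6893 CPM in Control, 5511 in Model and 6368 in PD00. Those of Gpnmb Trem2 macrophages were 1447, 11867 and 7603 CPM, and those of classical monocytes 200, 2621 and 2420 CPM. Cells of different origin and a change of level within 1 kind of cell cannot be told apart here, and the part of these markers in the result was not tested.

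**Figure D3:**
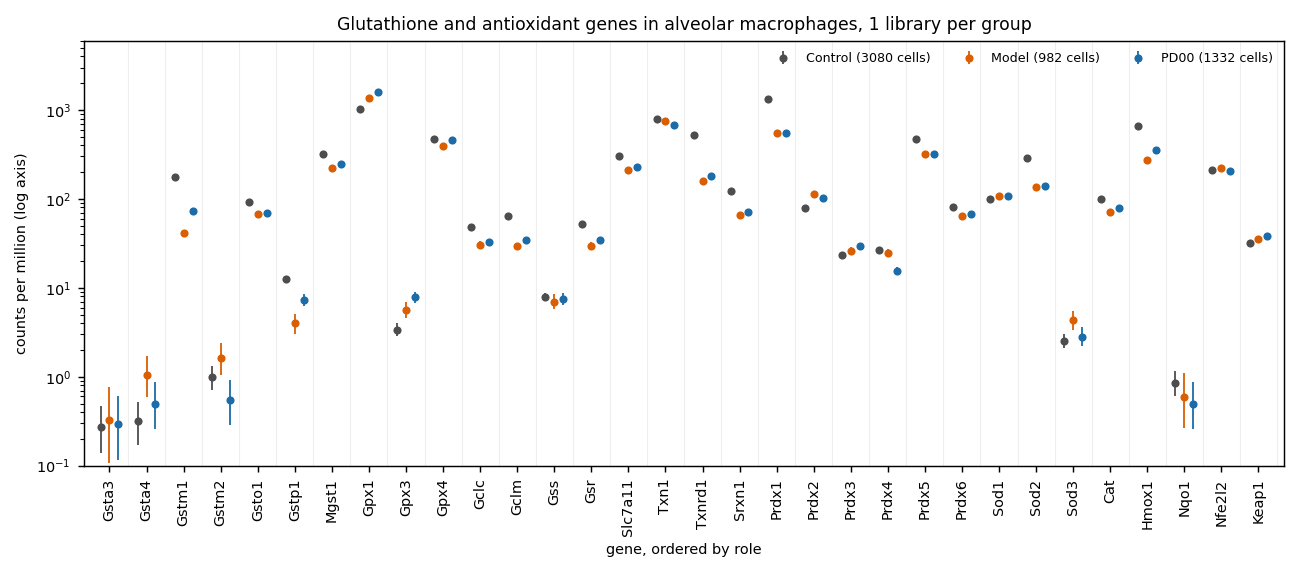
Level of each of the 32 genes in gated alveolar macrophages on a logarithmic CPM axis, with 1 point per library and exact 95% Poisson intervals. Control points lie above Model and PD00 for Gstm1, Txnrd1, Prdx1 and Hmox1, and below them for Gpx1.

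Because several of the lower genes are textbook Nfe2l2 targets, the promoter windows of the members were searched for the core of the antioxidant response element, TGACNNNGC, on both strands. RefSeq windows on GRCm38.p6, from 250 bases before to 50 after each start, were found for 26 of the 32. The letters occurred in 8 of the 26 members (30.8%) and in 14.0% of all 27025 genes with a window. The 8 were Gclm, Prdx1, Txnrd1, Srxn1, Mgst1, Gsta3, Sod1 and Nfe2l2. Gstm1 and Sod2 are not among them, which says only that these letters are not in their windows. No window was held for Hmox1, Gsr or Gclc, so these genes were not searched. Stretches of 59 bases around the match are shown for 3 members that were lower in alveolar macrophages, for Gsta3, whose total over gated cells was farthest from 1, and for Sod1, which went the other way in most types. All 5 lie on the plus strand, are written 5′ to 3′, and have the match in capitals.
Gclm, chr3:122245398-122245456: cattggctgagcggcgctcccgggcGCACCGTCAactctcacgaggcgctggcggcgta
Prdx1, chr4:116685441-116685499: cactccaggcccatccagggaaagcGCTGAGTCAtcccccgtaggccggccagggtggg
Txnrd1, chr10:82859089-82859147: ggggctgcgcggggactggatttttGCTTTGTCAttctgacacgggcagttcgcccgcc
Gsta3, chr1:21240439-21240497: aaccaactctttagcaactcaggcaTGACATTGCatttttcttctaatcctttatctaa
Sod1, chr16:90220681-90220739: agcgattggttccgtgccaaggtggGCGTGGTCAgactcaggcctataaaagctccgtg
The match is on the opposite strand in Gclm, Prdx1, Txnrd1 and Sod1 and on the written strand in Gsta3. It begins 134, 133, 92 and 56 bases before the start in Gclm, Prdx1, Txnrd1 and Sod1, and 121 before it in Gsta3. The Prdx1 match also holds the letters of the AP-1 motif TGAGTCA. In Txnrd1 it belongs to 1 of 3 windows of the gene. These are letter matches, and no measurement of binding was made.

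Other genes of the same pathways, from lists chosen with earlier results known, are given for alveolar macrophages as counts past the fold limit in Model, beside the 24.3% of all genes that were lower there and the 15.8% that were higher. Of 21 further Nfe2l2 partners and targets measured, 11 were lower and 2 higher. Their most abundant members were the ferritin chains, with Fth1 at 22036 CPM in Control, 8351 in Model and 11685 in PD00, and Ftl1 at 13700, 8316 and 10231 CPM. Both store iron, and both had PD00 between Control and Model. Of 4 metallothioneins and haem breakdown genes, 3 were lower and 0 higher; the metal-binding Mt1 stood at 1878, 723 and 952 CPM and Mt2 at 379, 158 and 209 CPM.

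Of 11 further glutathione transferases and peroxidases measured out of 21, 7 were lower and 1 higher in Model alveolar macrophages, with Mgst3 at 88.8 CPM in Control and 37.6 in Model, and Mgst2 at 10.9 and 6.26 CPM. Of 7 supply and breakdown genes measured out of 12, 2 were lower and 1 higher, shares near those of all genes. Slc3a2, the partner chain of the Slc7a11 transporter, stood at 301 CPM in Control and 122 in Model. Of 11 thioredoxin, glutaredoxin and methionine sulfoxide genes measured out of 12, 4 were lower and 1 higher, with Msrb1 at 563 and 319 CPM and Glrx5 at 108 and 82.1 CPM. Of the 6 superoxide and peroxide sources measured out of 12, 1 was lower: Cybb, the membrane subunit of the phagocyte oxidase, stood at 3513 and 1561 CPM, while its partner Cyba stood at 1265 and 928 CPM.

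The Gpnmb Trem2 macrophages, which were nearly absent from Control, can be compared with alveolar macrophages inside a library. The gate rule itself sets these types apart, since cells with Plet1 could not be called Gpnmb Trem2 macrophages. In Model, 8 of 28 members were higher in them and 0 lower, where 9.73% and 12.1% of all genes were. In PD00, 4 were higher and 1 lower, where 10.2% and 13.6% of all genes were. In Model, Prdx1 stood at 1288 CPM in Gpnmb Trem2 macrophages against 553 in alveolar macrophages, a ratio of 2.33. Srxn1 stood at 164 against 66.1 CPM (2.49), Txnrd1 at 304 against 161 CPM (1.89) and Gclm at 51.6 against 29.2 CPM (1.77). The members that were lower in Model than in Control alveolar macrophages thus include several that were higher in this neighbouring type of the same library.

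In C1q interstitial macrophages, which sit in the tissue outside the air spaces, more members were higher in Model than lower. Of 27 members measured, 8 were higher in Model than in Control and 3 lower, where 17.9% and 14.2% of all genes were, and the median log2 ratio was 0.22 beside 0.03. The 8 were Gsto1, Gpx3, Prdx3, Sod1, Sod3, Slc7a11, Keap1 and Mgst1. Keap1 stood at 14.7 CPM in Control, 33.1 in Model and 27.3 in PD00, 2.26-fold higher (1.37 to 3.96). Slc7a11 stood at 70.7, 108 and 115 CPM, 1.52-fold higher (1.21 to 1.94), whereas in alveolar macrophages Control was its highest library. Prdx4 stood at 101, 48.0 and 44.3 CPM, 2.10-fold lower (1.68 to 2.62), and Txnrd1 at 346, 229 and 263 CPM, 1.51-fold lower (1.34 to 1.69). The Control gate held 194 cells. In this gate the Gpnmb Trem2 macrophage markers were 770, 2853 and 2323 CPM in Control, Model and PD00, and the classical monocyte markers 846, 1882 and 1724 CPM; their part in the result was not tested. Gpx3 went to 0.901 of Control when types were taken from clusters in place of single-cell gates.

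Over the types with at least 50 UMIs, Gstm1 was below Control in 10 of 10 in Model, and at least 1.5-fold lower in 8. In T cells it stood at 12.5 CPM in Control, 5.49 in Model and 6.19 in PD00. In NK cells it stood at 37.9, 14.5 and 36.3 CPM, the last from 8 UMIs, and in fibroblasts at 659, 289 and 367 CPM. Model was the lowest library in each of these types, and in NK cells PD00 was level with Control. Free RNA from broken cells was not removed from the counts; the summed alveolar macrophage markers in T, B, NK and ILC2 cells were 146 to 230 CPM in Control, 112 to 204 in Model and 138 to 191 in PD00. In the same cells the Gpnmb Trem2 macrophage markers were 42.5 to 72.7, 401 to 807 and 319 to 473 CPM. The airway secretory markers were 682 to 893, 306 to 782 and 484 to 835 CPM, and the red cell markers 1529 to 4386, 244 to 3269 and 54.4 to 288 CPM. Some of these marker levels thus differed between libraries. How much of them was free RNA was not measured, and the part of free RNA in the Gstm1 and lymphocyte results was not tested.

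Gstp1, the pi class transferase (chr19:4035407-4037985, minus strand), was below Control in 7 of 7 types measured in Model and at least 1.5-fold lower in 6. In T cells it stood at 31.1 CPM in Control, 17.4 in Model and 28.1 in PD00, 1.79-fold lower in Model (1.49 to 2.15). In endothelium it stood at 48.3, 25.8 and 36.7 CPM, 1.87-fold lower (1.45 to 2.42), the member lowest by its interval in that type. In alveolar macrophages it stood at 12.5, 3.98 and 7.28 CPM. Model was the lowest library in all 3 types. Gstp2 and Gstp3 are near copies of Gstp1, so how their shared reads were counted leaves Gstp1 uncertain, and other transferases of 1 class carry the same limit. Gstp3 in T cells stood at 25.6, 31.0 and 27.3 CPM.

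Sod1 was above Control in 13 of 14 types in Model. In B cells it stood at 76.6 CPM in Control, 119 in Model and 143 in PD00, 1.56-fold higher in Model (1.33 to 1.83). In NK cells it stood at 95.1, 156 and 272 CPM, 1.64-fold higher (1.26 to 2.13), and in T cells at 202, 271 and 350 CPM, 1.34-fold higher (1.27 to 1.42). In these 3 lymphocyte types Control was lowest and PD00 highest. In endothelium it stood at 224, 263 and 243 CPM, 1.18-fold higher (1.07 to 1.29), the member highest by its interval there.

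T cells had 28 members measured, of which 3 were higher and 4 lower in Model, where 21.7% and 8.11% of all genes were. Keap1 stood there at 10.8 CPM in Control, 24.7 in Model and 24.2 in PD00, 2.28-fold higher in Model (1.79 to 2.92), and Gclc at 26.3, 54.1 and 65.0 CPM, 2.05-fold higher (1.76 to 2.41). Both are single-gene differences between a Control library and 2 others that were close. Prdx6 was the most abundant of the lower members, at 402, 253 and 257 CPM. The other lower members were Gstm1, Gstp1 and Sod3.

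B cells had 1 member higher and 4 lower of 24, where 13.4% and 8.81% of all genes were. Hmox1 was the lowest by its interval, at 27.9 CPM in Control, 14.7 in Model and 15.1 in PD00. The red cell markers in this gate were 4386, 261 and 79.1 CPM, and their part in the result was not tested. NK cells had 1 higher and 2 lower of 16, where 8.21% and 11.6% of all genes were. Plasma cells had 3 higher and 9 lower of 23, where 12.5% and 44.4% of all genes were. The immunoglobulin genes Igkc and Ighg1 took 9.62% and 0% of plasma cell UMIs in Control, and 21.6% and 7.55% in Model. These shares bear on every CPM of plasma cells. Prdx4 stood there at 175 CPM in Control, 425 in Model and 417 in PD00, but the Control value rests on 27 cells. The ratio became 0.933 when cells were thinned to 500 UMIs. Thinning so few cells leaves few Control UMIs of Prdx4, so that ratio cannot show whether the difference turned.

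In neutrophils 1 member was higher and 3 lower of 20, where 18.6% and 7.55% of all genes were. Srxn1 stood at 117 CPM in Control, 43.9 in Model and 65.7 in PD00, 2.66-fold lower in Model (2.07 to 3.43). Gsr was the 1 higher member, at 42.0, 69.0 and 54.7 CPM. Prdx5, a peroxiredoxin of mitochondria and peroxisomes, was the highest by its interval without reaching the fold limit, at 1028, 1363 and 1118 CPM (1.33-fold, 1.25 to 1.41). Txn1, Slc7a11 and Prdx5, whose levels in neutrophils were the highest or near the highest of any type, thus differed by less than 1.5-fold between Control and Model.

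In fibroblasts 8 members were lower and 1 higher of 30, where 16.5% and 7.58% of all genes were. Of the lower members, 5 were transferases, with Gsta3 at 75.8 CPM in Control, 20.3 in Model and 73.9 in PD00, 3.73-fold lower in Model (2.66 to 5.36). Gclc was the higher one, at 27.6, 46.4 and 25.0 CPM, 1.68-fold (1.25 to 2.25). For both genes the Model library stood apart and PD00 was close to Control. In the fibroblast gate the classical monocyte markers were 757, 2932 and 1911 CPM, the Gpnmb Trem2 macrophage markers 241, 981 and 667 CPM and the plasma cell markers 7.04, 613 and 81.7 CPM, all highest in Model. Their part in the result was not tested. In endothelium 4 were lower and 0 higher of 30, where 10.1% and 5.59% of all genes were; the 4 were Gsta3, Gstp1, Gss and Hmox1. Endothelial Hmox1 stood at 40.2, 21.9 and 22.2 CPM, but its ratio became 1.05 when each cell was given equal weight.

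The smaller myeloid and innate lymphoid types had 3 to 22 members measured between Model and Control. Classical monocytes had 2 higher (Gclc and Cat) and 3 lower (Gstm1, Gsr and Prdx4) of 22, where 12.3% and 6.84% of all genes were. Nonclassical monocytes had 0 higher and 3 lower (Prdx2, Sod2 and Mgst1) of 17, where 10.4% and 9.55% were. In cDC1, a dendritic cell type, 3 were higher and 2 lower of 17, where 18.2% and 10.2% were; 1 cell held 96.5% of the Model UMIs of Sod3 there. ILC2 had 2 higher (Gclc and Txnrd1) and 3 lower (Gpx4, Prdx2 and Prdx5) of 11, where 16.3% and 18.2% were. In basophils or mast cells 3 members were measured and 1, Prdx6, was lower, where 13.7% of all genes were higher and 31.9% lower.

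**Figure D4:**
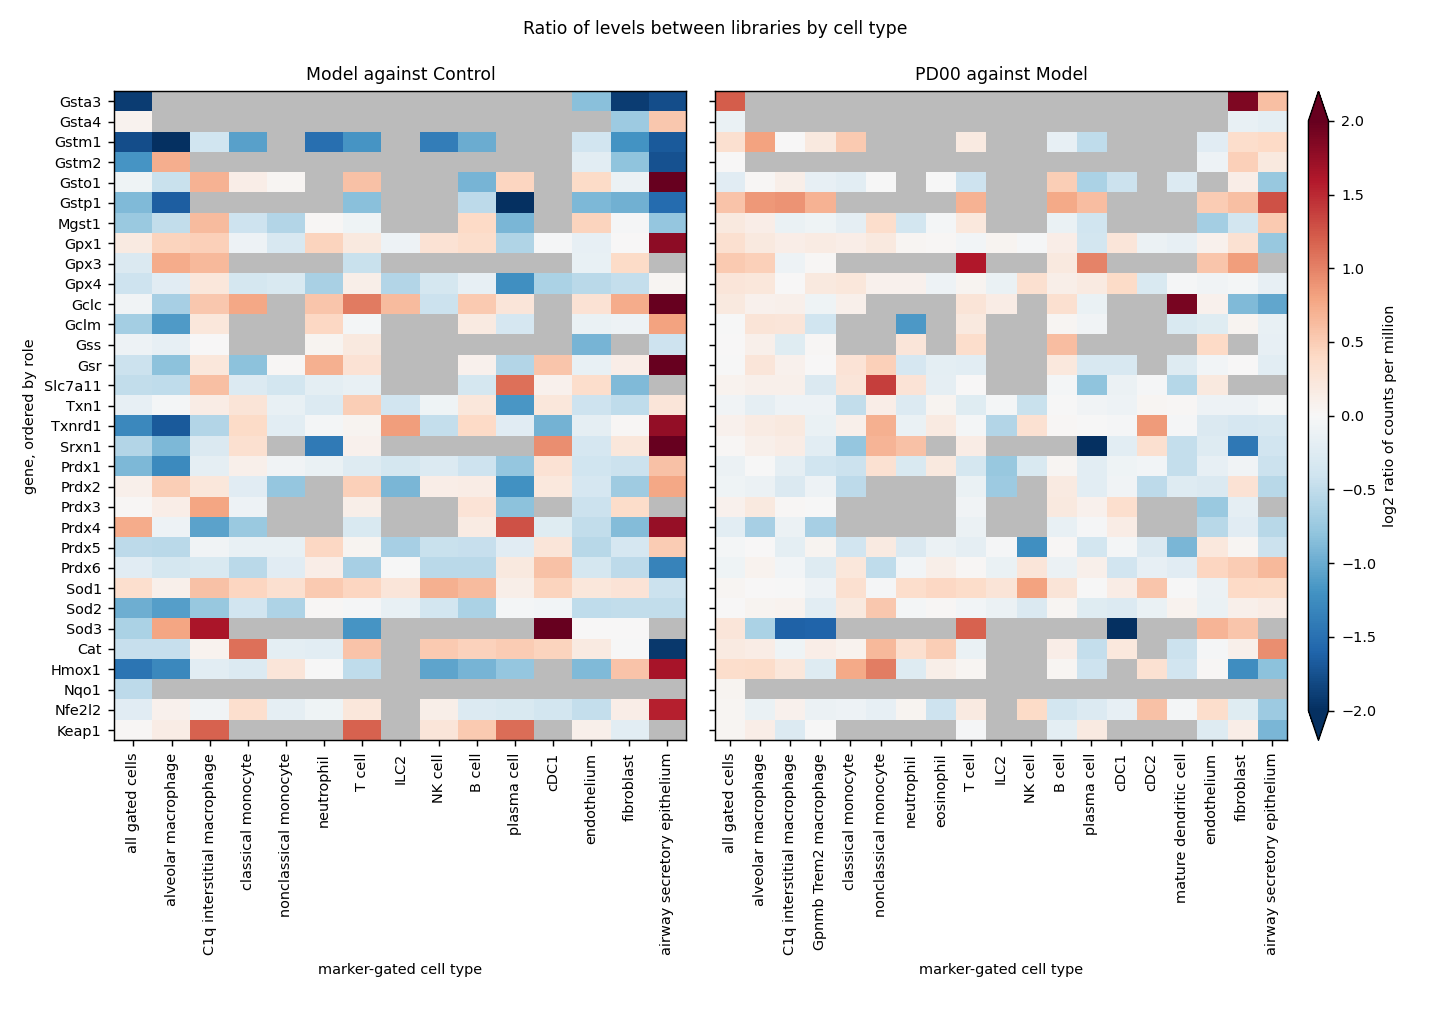
Log2 ratios of the 32 genes in each type, Model to Control in 1 panel and PD00 to Model in the other; grey marks pairs under 50 UMIs or types under 20 cells. In the first panel Gstm1 and Gstp1 are below 0 in every type measured and Sod1 above 0 in nearly all, and in the second Gstp1 is above 0 in every type measured.

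Airway secretory cells, which line the conducting airways, showed a large difference in the omega class transferase Gsto1 (chr19:47854970-47864790, plus strand). It stood at 44.7 CPM in Control, 1237 in Model and 729 in PD00, 27.6-fold higher in Model than in Control (19.9 to 39.6). The gate held 40, 96 and 52 cells. A single gene, the club cell secretoglobin Scgb1a1, took 61.5% of its UMIs in Control, 19.2% in Model and 43.1% in PD00, which bears on every CPM there. Values were therefore also computed with Scgb1a1 left out of the total, an alternative chosen after seeing the data. Gsto1 was then 13.2-fold higher (9.48 to 18.9).

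Of 26 members measured in the airway gate, 11 were higher and 7 lower in Model, where 72.7% and 3.52% of all genes were. Without Scgb1a1 in the total, 7 were higher and 12 lower, where 28.2% and 23.7% of all genes were. The members higher in both were Gsto1, Gpx1, Gclc, Gsr, Txnrd1, Prdx4 and Srxn1. Of these, Prdx4 rests on 11 Control UMIs, and its interval without Scgb1a1, 0.820 to 3.38, spans no difference. Srxn1 rests on 3 Control UMIs, with an interval of 1.73 to 27.0. All 7 lower ones, Gsta3, Gstm1, Gstm2, Gstp1, Prdx6, Cat and Mgst1, were also lower without it. Gclm and Prdx2 turned, from higher to 0.834 and 0.815 of Control.

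Gsr stood at 27.3 CPM in Control, 156 in Model and 135 in PD00, 5.70-fold higher in Model, and 2.72-fold higher (1.74 to 4.45) without Scgb1a1. Gclc stood at 33.6, 137 and 66.8 CPM, 4.07-fold and 1.94-fold higher; 1 cell held 26.9% of its Model UMIs. Gpx1 stood at 104, 363 and 214 CPM, 3.47-fold and 1.66-fold higher. Control was the lowest library for these genes in both totals. Model was the highest except for Gsr without Scgb1a1, where PD00 stood at 237 CPM and Model at 193.

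On the other side, Prdx6 stood at 2053, 815 and 1271 CPM, and its ratio of Model to Control was 0.397, or 0.189 without Scgb1a1. Catalase (Cat), which breaks down hydrogen peroxide in peroxisomes, stood at 184, 48.2 and 92.1 CPM, a ratio of 0.262, or 0.125. Gstm1 stood at 513, 159 and 211 CPM, Gsta3 at 298, 87.6 and 134 CPM, and Gstm2 at 273, 81.5 and 93.2 CPM. Control was highest in all 5 genes and PD00 lay between the others.

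The same gate differed in its secretory genes. Clca1, a goblet cell product, had 0 UMIs in Control, a count that allows up to 3, and stood at 24498 CPM in Model and 16356 in PD00, and the mucin Muc5b stood at 3.73, 1263 and 1016 CPM. The club cell cytochrome Cyp2f2 stood at 4224, 2037 and 2196 CPM. Another secretoglobin, Scgb3a2, did not follow it, at 9202, 9922 and 3413 CPM. The median depth per cell was 19991, 6629 and 7466.5 UMIs. Goblet and club cells were not separated within the gate, and the part of these genes and of depth in the result was not tested.

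**Figure D5:**
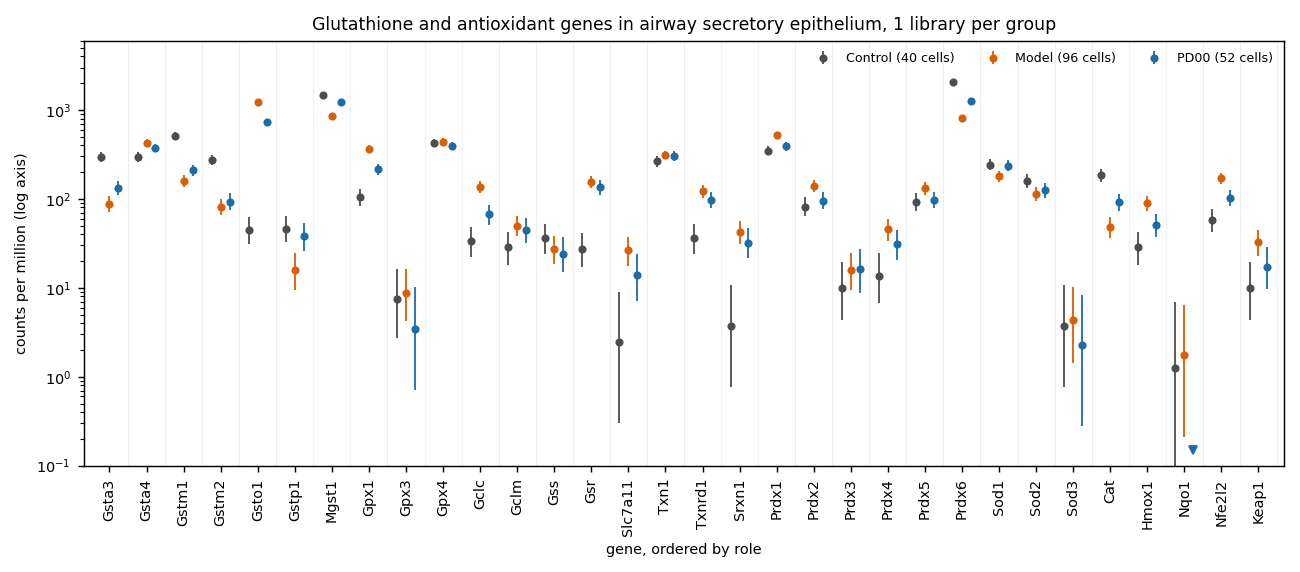
Level of each gene in airway secretory cells of the 3 libraries on a logarithmic CPM axis, with 1 point per library, exact 95% Poisson intervals and Scgb1a1 in the total; a triangle marks 0 counts. Gsto1 is far higher in Model and PD00 than in Control, and Prdx6, Cat, Gsta3, Gstm1 and Gstm2 are highest in Control.

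Between PD00 and Model the members differed much less. Over all gated cells 1 of 32 was higher in PD00 and 0 lower, where 3.59% and 7.17% of all genes were, with a median of 0.04 beside 0.00. The higher one was Gsta3 (log2 ratio 1.21), and 47.8% of its PD00 UMIs came from mesothelium, of which Model held 8 cells. The next were Gstp1 (0.58), Gpx3 (0.52), Hmox1 (0.35), Gstm1 (0.32) and Gpx1 (0.31), all below the fold limit. With the make-up of Model kept over 18 shared types, Gsta3 (0.89), Gstp1 (0.68) and Gpx3 (0.67) were higher and 0 lower, where 3.15% and 4.98% of all genes were; Sod3 (0.39), Gsto1 (-0.27) and Gsta4 (-0.24) followed. With levels kept, 0 of 32 passed in either direction, where 0.0532% of all genes were higher and 0.253% lower. The Model library is part of both comparisons, so a low Model value alone sets both ratios, and PD00 and Control are given only side by side.

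Gstp1 was higher in PD00 than in Model in 9 of 9 types measured and at least 1.5-fold higher in 8. In alveolar macrophages it stood at 3.98 CPM in Model and 7.28 in PD00, 1.83-fold (1.36 to 2.49). In Gpnmb Trem2 macrophages it stood at 6.50 and 10.6 CPM, 1.62-fold (1.20 to 2.21), and was the highest member by its interval. In C1q interstitial macrophages it stood at 6.07 and 11.3 CPM, and in B cells at 12.8 and 21.7 CPM, 1.70-fold (1.21 to 2.40). Set beside Control, the PD00 values were 7.28 against 12.5 CPM in alveolar macrophages, 11.3 against 11.2 in C1q interstitial macrophages and 21.7 against 18.4 in B cells.

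In alveolar macrophages 2 members were higher and 2 lower in PD00 of 28, where 2.66% and 6.93% of all genes were. Gstm1 was the highest, at 41.6 CPM in Model and 72.8 in PD00, 1.75-fold (1.60 to 1.92), with 174 in Control. Gstp1 was the other. Prdx4 was the lowest, at 24.9 CPM in Model and 15.7 in PD00. Sod3, at 4.37 and 2.83 CPM, turned to 1.30 without clusters under 50% gated. Of the 10 members lower in Model than in Control, Txnrd1, Prdx1, Sod2, Gclc, Gclm, Gsr, Srxn1 and Hmox1 differed by less than 1.5-fold between PD00 and Model. Of the 20 further Nfe2l2 partners and targets measured there, 0 passed in either direction, and of the 4 metallothioneins and haem breakdown genes 0 passed.

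In Gpnmb Trem2 macrophages 1 member was higher and 2 lower of 28, where 2.2% and 5.97% of all genes were. Prdx4 stood at 38.6 CPM in Model and 24.2 in PD00, and Sod3 at 4.99 and 1.65 CPM. In C1q interstitial macrophages 1 was higher and 1 lower of 28, where 3.18% and 3.76% were, with Sod3 at 13.4 and 4.38 CPM. The low Sod3 values of macrophages stand beside the high Sod3 level of fibroblasts in the same libraries.

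In T cells 3 members were higher and 0 lower of 28, where 3.75% and 2.97% of all genes were. They were Gstp1, Sod3 and Gpx3. Gpx3 stood at 2.78 CPM in Model and 8.48 in PD00, a ratio of 3.05, but 1 cell held 29.2% of its PD00 UMIs. Prdx1 was the lowest by its interval, at 276 CPM in Control, 230 in Model and 180 in PD00. In B cells 2 were higher and 0 lower of 26, where 3.74% and 2.51% were, and Nfe2l2 was the lowest, at 47.4 CPM in Model and 36.8 in PD00.

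In neutrophils 0 were higher and 1 lower of 18, where 6.26% and 4.12% of all genes were. Gclm was the lower one, at 34.7 CPM in Model and 15.7 in PD00, and Slc7a11 the highest by its interval, at 1123 and 1354 CPM (1.21-fold, 1.13 to 1.28). In eosinophils 0 of 16 passed in either direction, where 5.08% and 4.78% did. Catalase (Cat) stood there at 230 CPM in Model and 323 in PD00, and Nfe2l2 at 221 and 165 CPM. In this gate the neutrophil markers had a median of 174.8 per 10000 UMIs and the eosinophil markers 43.7.

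In plasma cells 2 members were higher and 3 lower of 26, where 4.01% and 6.32% of all genes were. Gpx3 stood at 5.68 CPM in Model and 11.3 in PD00, with 27.5% of its PD00 UMIs in 1 cell, and Srxn1 at 6.82 and 1.64 CPM. In nonclassical monocytes 5 were higher and 0 lower of 17, where 9.07% and 6.32% were. Hmox1 stood there at 191 CPM in Control, 227 in Model and 461 in PD00, 2.03-fold higher in PD00 than in Model (1.65 to 2.50), and Txnrd1 at 225, 194 and 317 CPM, 1.63-fold (1.29 to 2.07). Slc7a11 stood at 187, 145 and 378 CPM, with 29.3% of its PD00 UMIs in 1 of 87 cells. PD00 was the highest library for these 3 genes. The alveolar macrophage markers in this gate were 191, 169 and 515 CPM, also highest in PD00, and their part in the result was not tested.

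Among the remaining small types, classical monocytes had 1 member higher (Hmox1) and 1 lower (Srxn1) of 20, where 6.1% and 9.26% of all genes were. NK cells had 1 higher (Sod1) and 1 lower (Prdx5) of 10, where 11.1% and 6.29% were, and ILC2 had 0 higher and 3 lower (Txnrd1, Prdx1 and Prdx2) of 11, where 8.99% and 4.25% were. In cDC1 0 were higher and 1 lower (Sod3) of 19, where 5.06% and 4.19% were, and in cDC2 2 were higher (Txnrd1 and Nfe2l2) and 0 lower of 14, where 8.11% and 10.1% were. Mature dendritic cells had 1 higher and 1 lower (Prdx5) of 19, where 8.15% and 8.3% were; the higher one was Gclc, at 31.5 CPM in Model and 118 in PD00, 3.74-fold (2.31 to 6.23). In endothelium 1 was higher and 2 lower of 28, where 4.71% and 5.15% were.

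In fibroblasts 3 members were higher and 3 lower in PD00 of 29, where 10.1% and 6.73% of all genes were. Gsta3 stood at 20.3 CPM in Model and 73.9 in PD00, 3.64-fold higher (2.53 to 5.34), and Gpx3 at 813 and 1448 CPM, 1.78-fold higher (1.67 to 1.90). Gclc, at 46.4 and 25.0 CPM, and Hmox1, at 103 and 43.4 CPM, were lower. For Gsta3 and Gclc the Model library stood apart, whereas Hmox1 in Control, at 69.0 CPM, lay between the other libraries.

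In airway secretory cells 4 members were higher and 6 lower in PD00 of 27, where 1.35% and 50.2% of all genes were. Without Scgb1a1 in the total, 9 were higher and 0 lower, where 8.2% and 18.8% were. Gsta3, Gstp1, Prdx6 and Cat were higher in both. Prdx6 stood at 815 CPM in Model and 1271 in PD00, and its ratio without Scgb1a1 was 2.21 (2.03 to 2.42). Cat stood at 48.2 and 92.1 CPM, and its ratio without Scgb1a1 was 2.71 (1.90 to 3.90). Gsto1 stood at 1237 and 729 CPM, and without Scgb1a1 its ratio was 0.836 (0.760 to 0.918). The 6 members called lower in PD00, Gsto1, Gpx1, Gclc, Hmox1, Nfe2l2 and Keap1, were thus within the fold limit in the total without Scgb1a1.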

How the data were processed

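The authors deposited 3 filtered gene by cell matrices of raw UMI counts, 1 per library. Per the submitters' processing notes, reads were handled with Cell Ranger 3.1.0 and STAR against mm10; per the file headers, the deposited count matrices were written by cellranger 5.0.0. Which version made the counts was not settled, and the handling of intronic reads is not given in the sources used here.

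Cells were required to have 500 UMIs and 200 genes or more, and no more than 20% of UMIs from mitochondrial genes. Cells with a doublet score above 0.2 (scanpy 1.11.5), 4.30%, 2.18% and 2.84% of Control, Model and PD00, were removed. Each cell took the type of whose markers it held the largest share, with at least 2 markers, a share of at least 30% and a lead of 10%. Cells with the alveolar macrophage marker Plet1, or with neither Gpnmb nor Trem2, were kept out of the Gpnmb Trem2 macrophage gate. Cells with any UMI of Cd3e, Cd3d or Cd3g were kept out of the ILC2 gate. The members and lists were chosen with earlier results of these data known, and the gate limits were set after the data were seen. Counts were summed per type and library over types with at least 20 cells. Ratios have exact conditional binomial intervals (scipy 1.17.1), checked on simulated counts.

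Named members are, in each of the 8 largest types, the highest and lowest by the interval bound nearest to 1, and the 6 farthest from 1 over all gated cells and with make-up kept; others were added after their values were seen. For each further list the 2 genes with the most UMIs are named, except 1 that is not reported here. Alternatives changed cell limits, doublets, gates, scaling, UMI minimum and cell weighting.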

Additional observations from a re-analysis of the deposited data

Results flagged for a closer look

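Some members were at least 1.5-fold higher in 1 type and at least 1.5-fold lower in another under the same comparison. None of these differences between types was tested.

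Between Model and Control, Gclc was at 2.05 of Control in T cells and 1.68 in fibroblasts, and at 0.632 in alveolar macrophages. Gsr was at 1.64 in neutrophils and 0.564 in alveolar macrophages. Slc7a11 was at 1.52 in C1q interstitial macrophages and 0.544 in fibroblasts. Gsto1 was at 1.62 in C1q interstitial macrophages and 1.51 in T cells, and at 0.526 in B cells. Sod3 was at 1.72 in alveolar macrophages and 3.11 in C1q interstitial macrophages, and at 0.443 in T cells.

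Between PD00 and Model, Sod3 was at 2.28 of Model in T cells, and at 0.648 in alveolar macrophages, 0.326 in C1q interstitial macrophages and 0.331 in Gpnmb Trem2 macrophages. All these Sod3 levels were under 14 CPM, while fibroblasts of the same libraries stood at 820 CPM or more.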

How the results depend on the processing

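No paired analysis was possible because each group is 1 library and the labels give no replicate numbers. Over the 8 largest types, 204 pairs of member and type were measured between Model and Control, 18 higher and 38 lower (13.7% and 13.4% of all pairs). The higher count was 28 at a minimum of 1 UMI, 31 with cells weighted equally and 6 with cells thinned to 500 UMIs, where 98 pairs were left; the lower count was 60 at 1 UMI. Between PD00 and Model, 11 of 198 were higher and 9 lower (3.5% and 4.75% of all pairs). The higher count was 28 at 1 UMI, 4 at 200 UMIs and 2 thinned; the lower count was 28, 2 and 3 there, 14 with cells weighted equally and 4 without clusters under 50% gated. The count with levels kept, 1 higher in Model, was 2 at a mitochondrial limit of 10%, 0 with cluster types or equal weights, 4 with median-of-ratios scaling or without Scgb1a1, and 3 without mitochondrial, ribosomal and haemoglobin genes. For PD00 it went from 0 to 1 lower with median-of-ratios scaling and without Scgb1a1. The observed count of 1 higher in PD00 was 3 with cluster types, equal weights or thinning, and the make-up-kept count of 3 was 0 with thinning.

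Some single values turned. Without those clusters, Gstm2 and Sod3 in alveolar macrophages were at 0.771 and 0.846 of Control, and Sod3 in PD00 at 1.30 of Model. With cluster types, Gpx3 in C1q interstitial macrophages was at 0.901 and Gpx4 in cDC1 at 1.04 of Control, and airway Gpx1, Gclc and Hmox1 at 1.05, 2.12 and 1.02 of Model. With median-of-ratios scaling, plasma Gpx1 was at 1.09 and airway Gclm and Prdx2 at 0.977 and 0.955; without Scgb1a1 the airway pair were at 0.834 and 0.815. With thinning, Prdx4 was at 0.933 in plasma cells, where few Control UMIs were left, and at 0.941 over all gated cells. With equal weights, endothelial Hmox1 was at 1.05 and fibroblast Slc7a11 at 1.23. The cause was not tested. In alveolar macrophages the count of members lower in Model stayed between 9 and 13 under the 13 alternatives. Depth limits the low members, such as Nqo1 and Sod3, and the small airway, plasma and mesothelial gates.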
